A study of Homo sapiens with 6 samples.

Results

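The replication-dependent histone genes encode the linker histones H1 and the core histones H2A, H2B, H3 and H4 that package newly made DNA. The cells were YCC3, an established line from human gastric cancer, collected 48 hours after they received CTNNB1 siRNA (3 arrays) or non-targeting control siRNA (3 arrays). CTNNB1 encodes beta-catenin, the co-activator of the Wnt pathway. Both groups were grown in the same medium with serum and differ in the siRNA only, as far as the labels say. The labels give neither the siRNA sequences nor whether a pool was used, and they call the arrays biological replicates without saying whether the cultures were transfected on separate days. The p-values therefore measure the spread between these 6 samples of 1 cell line. Members were all genes whose only symbol in the array annotation was a numbered H2AC, H2BC, H3C or H4C name or H1-1 to H1-6. This gave 57 of the 18417 genes tested, each with 1 row that names it alone, although some also appear on rows with several symbols: 6 H1, 14 H2A, 16 H2B, 8 H3 and 13 H4 genes. By their older names 49 belong to the large HIST1 group, 5 to HIST2, 2 to HIST3 and 1 to HIST4.

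Most histone mRNA is made while DNA is copied. Cyclin E with CDK2 activates NPAT, the co-activator that switches on histone gene clusters as cells enter S phase. The genes lack introns, and their mRNAs end in a conserved stem-loop bound by SLBP instead of in a poly(A) tail, so that they are made and degraded in step with replication. A few members can also give polyadenylated transcripts, which persist outside S phase. Near-identical copies are the rule within a type, and an array probe can therefore collect signal from more than 1 gene.

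Each value is a log2 signal from the authors' RMA processing, so a log2 change of -1 means 2-fold less signal. RMA scales the arrays alike, although the row values keep small differences between arrays, with array medians of 5.88 to 5.95. CTNNB1 itself measured 11.80, 11.81 and 11.90 on the control arrays and 10.94, 11.06 and 11.20 on the CTNNB1 siRNA arrays, which is -0.77 ± 0.10 on the log2 scale (SE; limma, adjusted p = 0.00267). Without moderation of the variances its adjusted p was 0.0660. All 9 measured epithelial markers lay above the array median, and their mean level was 11.03 to 11.12 on control and 11.30 to 11.33 on CTNNB1 siRNA arrays. Of these 9, 8 changes were positive, and TFF1 (1.15 ± 0.11, adjusted p = 0.000314) and CLDN4 (0.61 ± 0.10, adjusted p = 0.00763) rose. The part of these markers in the histone changes was not tested. All 8 measured leukocyte markers lay below the array median, at a mean level of 4.27 to 4.43 on control and 4.38 to 4.59 on CTNNB1 siRNA arrays, and none passed the threshold. Of 9 endothelial and fibroblast markers 8 lay below the array median and none passed.

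Of the 57 histone genes 27 fell with CTNNB1 siRNA, none rose and 30 did not pass the threshold, an adjusted p of 0.05 in limma (Benjamini-Hochberg). The share that fell was 47.4%, where 2.65% of all genes tested fell and 4.72% changed in either direction. No member rose, where 2.07% of all genes did. Among all genes 488 fell and 382 rose, and under cyclic loess scaling 379 fell and 488 rose, with 25 falls among the members. At an unadjusted p under 0.05, 40 members were lower and 1 was higher, where 2210 and 1536 of all 18417 genes were. Changes of members ranged from -1.10 for H2AC4 to 0.58 for H2BC21, with a median of -0.44, beside a median of 0.006 over all genes. In all, 50 changes were negative and 7 positive. The rows of H4C14 and H4C15 held identical values on all 6 arrays, so the members give 56 separate measurements, of which 27 fell and 29 did not pass.

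The groups did not overlap for most members. In 38 of the 57 genes (66.7%) all CTNNB1 siRNA arrays lay below all control arrays, where 15.2% of all genes showed this. In 1 gene, H2BC21, all of them lay above, where 10.8% of all genes did, and in 18 the groups overlapped. Taken against each gene's control mean, the median difference over members was -0.004, -0.06 and 0.06 on the control arrays. It was -0.50, -0.53 and -0.44 on the CTNNB1 siRNA arrays, so each of those arrays was lower by a similar amount. An array reads a whole culture, and fewer cells in S phase and less histone RNA per cell cannot be told apart here. Leaving out single arrays left between 18 and 25 falls, with 18 left without control replicate 1, control replicate 3 or CTNNB1 siRNA replicate 1. Of the 27 falls 16 passed with any 1 array left out, and 2, those of H3C2 and H2AC8, passed in a per-gene test without moderation.

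**Figure D1:**
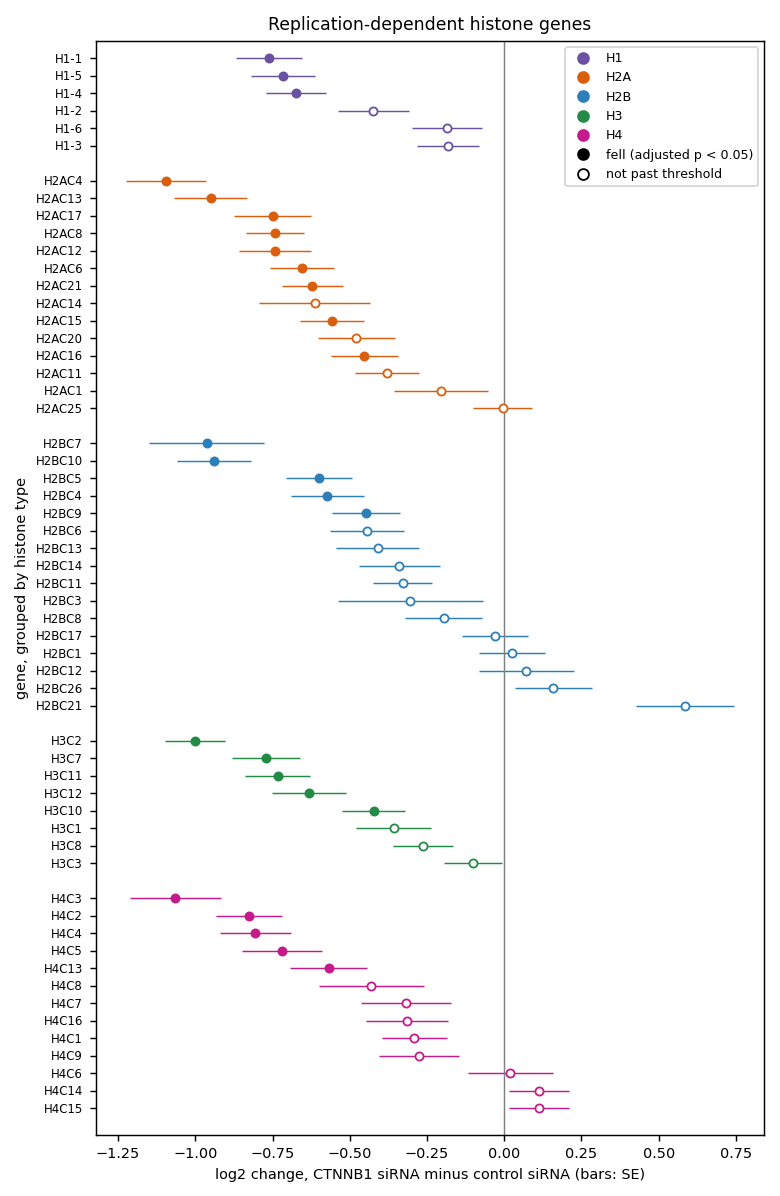
Log2 change (x axis, CTNNB1 siRNA minus control siRNA) of each of the 57 histone genes (y axis), grouped by histone type, with standard errors as bars; filled points passed an adjusted p of 0.05. All filled points lie left of 0, between -1.10 and -0.42, and H2BC21 is the point farthest to the right at 0.58.

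The promoters of these genes carry a few short elements in type-specific combinations, shown here because the members moved together. RefSeq's GRCh38.p14 promoter table held 52 of the 57 members, with H2AC12, H3C11, H3C12, H4C1 and H4C3 unmatched. The 250 bases before the start were searched on both strands for 4 motifs. TATAAA was taken as the TATA box. The CCAAT box was searched as those letters alone. ATTTGCAT is the octamer bound by POU factors. CTTTGAT stood for the core motif of TCF/LEF factors, the partners of beta-catenin. A CCAAT box was found in all 6 H1, 13 H2A, 16 H2B and 6 H3 promoters but in 3 of 11 H4 promoters, and in 33.0% of all 27305 gene promoters. The octamer was found in 10 of 13 H2A and 13 of 16 H2B promoters, in none of the other types, and in 1.66% of all promoters. The TATA box was found in 65.4% of members and in 11.1% of all promoters. In 9 pairs of an H2A and an H2B gene that start back to back, only 215 to 248 bases lie between the starts. The windows of such a pair cover the same stretch, and a match in it counts for both genes. The H2A and H2B counts are therefore not independent, and a match can belong to the neighbour. The TCF/LEF letters were found in 0 of 52 members and in 2.28% of all promoters. At that share few of 52 promoters would match, and only these letters in 250 bases were searched. Binding of TCF/LEF factors to the members was not tested. Among members that fell the octamer was found in 10 of 23, and among those that did not pass in 13 of 29. Some shared stretches count on both sides, as for H2AC8, which fell, and H2BC8, which did not pass. Both counts also include H1, H3 and H4 promoters, where no octamer was found. Whether the octamer goes with a fall was not tested. One promoter per type and that of H2BC21 are printed 5′ to 3′ on the gene's strand, with the matches in capitals. They lie at chr6:26156079-26156328, plus strand (H1-4), chr6:26033619-26033868, minus strand (H2AC4), chr6:26272681-26272930, plus strand (H2BC10), chr6:26032100-26032349, minus strand (H3C2), chr6:26027284-26027533, minus strand (H4C2) and chr1:149886683-149886932, minus strand (H2BC21).
H1-4: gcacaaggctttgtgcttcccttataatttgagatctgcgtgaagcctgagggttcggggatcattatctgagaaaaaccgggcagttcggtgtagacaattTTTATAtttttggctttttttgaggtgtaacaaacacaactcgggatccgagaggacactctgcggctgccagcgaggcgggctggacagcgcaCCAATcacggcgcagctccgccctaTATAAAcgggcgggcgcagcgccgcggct
H2AC4: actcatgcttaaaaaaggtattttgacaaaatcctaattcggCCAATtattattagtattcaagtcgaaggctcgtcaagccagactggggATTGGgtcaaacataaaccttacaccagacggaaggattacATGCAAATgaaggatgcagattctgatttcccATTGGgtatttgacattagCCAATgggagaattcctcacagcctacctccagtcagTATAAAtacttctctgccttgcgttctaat
H2BC10: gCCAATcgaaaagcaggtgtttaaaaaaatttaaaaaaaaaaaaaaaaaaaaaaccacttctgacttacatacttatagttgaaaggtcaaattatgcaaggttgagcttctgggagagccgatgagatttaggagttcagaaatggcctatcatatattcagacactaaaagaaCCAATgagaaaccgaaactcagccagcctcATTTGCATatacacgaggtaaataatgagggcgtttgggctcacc
H3C2: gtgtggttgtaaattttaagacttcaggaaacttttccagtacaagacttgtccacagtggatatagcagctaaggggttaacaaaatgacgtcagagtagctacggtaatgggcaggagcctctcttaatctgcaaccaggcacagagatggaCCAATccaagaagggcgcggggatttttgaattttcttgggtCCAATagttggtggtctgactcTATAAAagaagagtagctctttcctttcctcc
H4C2: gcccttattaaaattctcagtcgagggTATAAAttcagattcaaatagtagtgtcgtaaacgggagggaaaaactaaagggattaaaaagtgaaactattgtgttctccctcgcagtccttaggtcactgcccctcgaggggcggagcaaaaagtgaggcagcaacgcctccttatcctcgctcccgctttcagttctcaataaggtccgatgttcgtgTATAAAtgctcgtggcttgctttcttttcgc
H2BC21: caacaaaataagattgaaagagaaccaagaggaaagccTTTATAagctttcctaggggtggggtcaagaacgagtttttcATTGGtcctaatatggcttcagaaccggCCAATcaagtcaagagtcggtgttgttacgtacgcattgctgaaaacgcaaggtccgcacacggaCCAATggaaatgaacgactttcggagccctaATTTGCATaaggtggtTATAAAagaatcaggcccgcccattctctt

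Linker histones, which bind the DNA between nucleosomes, fell in 3 of 6 genes, and all 6 changes were negative with a median of -0.55. H1-4 measured 11.45, 11.43 and 11.57 on the control arrays and 10.72, 10.87 and 10.82 on the CTNNB1 siRNA arrays. The groups were clear of each other, and its change was -0.68 ± 0.10 (SE; limma, adjusted p = 0.00422), or 37.4% less signal. H1-5 went from 10.72 ± 0.12 to 10.00 ± 0.10 (SD, n = 3 each), a change of -0.72 ± 0.10 (SE; limma, adjusted p = 0.00440), and H1-1 from 8.92 ± 0.05 to 8.15 ± 0.16 (SD, n = 3 each), a change of -0.76 ± 0.11 (SE; limma, adjusted p = 0.00366). H1-2, which can be polyadenylated, measured -0.42 ± 0.12 (SE; limma, adjusted p = 0.0674), with all CTNNB1 siRNA arrays below all control arrays. H1-3 measured -0.18 ± 0.10 (SE; limma, adjusted p = 0.346). The testis member H1-6 was dim, below the array median in both groups, and measured -0.19 ± 0.11 (SE; limma, adjusted p = 0.411).

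H2A genes fell in 9 of 14 cases, and all 14 changes were negative with a median of -0.62. H2AC4 showed the largest change of any member. It measured 9.04, 8.89 and 8.85 on the control arrays and 7.60, 7.82 and 8.07 on the CTNNB1 siRNA arrays. The highest CTNNB1 siRNA array was still well below the lowest control array, and the change of -1.10 ± 0.13 (SE; limma, adjusted p = 0.00128) means 53.2% less signal. H2AC13 measured 8.44, 8.40 and 8.28 on the control arrays and 7.20, 7.47 and 7.60 on the CTNNB1 siRNA arrays, a change of -0.95 ± 0.12 (SE; limma, adjusted p = 0.00201). Its row carries a sequence accession that also appears on another row. H2AC8 measured 6.04, 6.03 and 6.17 on the control arrays and 5.35, 5.29 and 5.37 on the CTNNB1 siRNA arrays, with a change of -0.74 ± 0.09 (SE; limma, adjusted p = 0.00209) and arrays within each group that were close together.

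The other 6 H2A falls lay between -0.75 for H2AC17 and -0.45 for H2AC16. H2AC21 was the only fall outside HIST1: this HIST2 gene measured 11.06, 11.22 and 11.09 on the control arrays and 10.58, 10.53 and 10.41 on the CTNNB1 siRNA arrays, a change of -0.62 ± 0.10 (SE; limma, adjusted p = 0.00732). Its row too carries a sequence accession that also appears on another row. A row that H2AC21 shares with H2AC18, H2AC19 and H2AC20 measured -0.31 ± 0.10 (SE; limma over all rows, adjusted p = 0.218). H2AC12 and H2AC17 had control means below the array median, where signal over background is unknown. The calls of H2AC15, H2AC16 and H2AC17 each ended in some of the fits with an array left out, where their highest adjusted p was 0.0704, 0.183 and 0.0564. Of those not past the threshold, H2AC20 measured -0.48 ± 0.12 (SE; limma, adjusted p = 0.0569), H2AC14 -0.61 ± 0.18 (SE; limma, adjusted p = 0.0832) and H2AC11 -0.38 ± 0.10 (SE; limma, adjusted p = 0.0695). The HIST3 gene H2AC25 measured 6.34, 6.32 and 6.41 on the control arrays and 6.27, 6.45 and 6.32 on the CTNNB1 siRNA arrays, and its change of -0.01 ± 0.10 (SE; limma, adjusted p = 0.984) was within the spread of either group. The testis gene H2AC1 measured -0.21 ± 0.15 (SE; limma, adjusted p = 0.501) on a dim row.

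H2B genes were uneven, with 5 of 16 falling, 12 negative and 4 positive changes, and a median of -0.33. H2BC10 measured 6.06, 5.80 and 6.18 on the control arrays and 5.09, 5.17 and 4.96 on the CTNNB1 siRNA arrays, a change of -0.94 ± 0.12 (SE; limma, adjusted p = 0.00223). H2BC7 measured 8.26, 8.14 and 8.21 on the control arrays and 7.60, 6.74 and 7.39 on the CTNNB1 siRNA arrays. CTNNB1 siRNA replicate 2 was the lowest by a wide margin, and the change of -0.96 ± 0.19 (SE; limma, adjusted p = 0.0181) did not pass without control replicate 1 (adjusted p = 0.0775) or 3 (adjusted p = 0.0672). H2BC5 fell by 0.60 ± 0.11, H2BC4 by 0.57 ± 0.12 and H2BC9 by 0.45 ± 0.11 log2 units (limma, adjusted p = 0.0129, 0.0240 and 0.0462). All 3 calls ended without control replicate 1, where the adjusted p was 0.0727, 0.113 and 0.160, and that of H2BC9 ended whichever array was left out.

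H2BC21, a HIST2 gene known for polyadenylated transcripts, was the only member with every CTNNB1 siRNA array above every control array. It measured 7.53, 7.16 and 7.60 on the control arrays and 8.31, 7.77 and 7.96 on the CTNNB1 siRNA arrays. The change was 0.58 ± 0.16 (SE; limma, adjusted p = 0.0682), which did not pass the threshold. It passed in 6 of 15 other settings, among them cyclic loess scaling (adjusted p = 0.0425) and a trended and robust variance (adjusted p = 0.0204), and in none that left out an array. On 2 rows whose several symbols include H2BC21 the change was -0.22 ± 0.11 and -0.04 ± 0.11. H2BC12, also known for polyadenylated transcripts, measured 7.66, 7.46 and 7.56 on the control arrays and 7.98, 7.32 and 7.59 on the CTNNB1 siRNA arrays, and its groups overlapped with a change of 0.07 ± 0.15 (SE; limma, adjusted p = 0.841). The remaining positive H2B changes were those of the HIST3 gene H2BC26 at 0.16 ± 0.12 (SE; limma, adjusted p = 0.527) and of the testis gene H2BC1, which was dim, at 0.03 ± 0.11 (SE; limma, adjusted p = 0.924). H2BC17 measured -0.03 ± 0.11 (SE; limma, adjusted p = 0.907). The other 6 H2B genes, H2BC6, H2BC13, H2BC14, H2BC11, H2BC3 and H2BC8, had changes between -0.44 and -0.20 that did not pass.

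**Figure D2:**
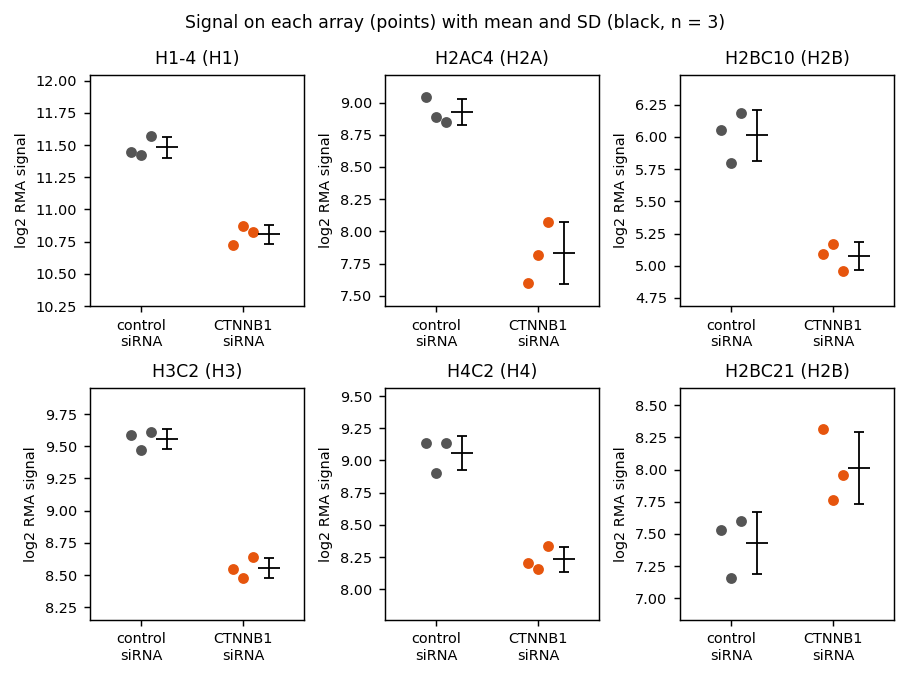
Log2 RMA signal (y axis) of 6 histone genes on each array with control siRNA (grey) or CTNNB1 siRNA (orange), with the mean and SD of 3 arrays in black; each panel spans the same range of log2 units. In the panels of H1-4, H2AC4, H2BC10, H3C2 and H4C2 all orange points lie below all grey points, and in that of H2BC21 they lie above.

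H3 genes fell in 5 of 8 cases with a median of -0.53, and all 8 changes were negative. H3C2 had the smallest adjusted p of any member. It measured 9.59, 9.47 and 9.61 on the control arrays and 8.55, 8.48 and 8.64 on the CTNNB1 siRNA arrays. The arrays of each group lay close together, and the change of -1.002 ± 0.097 (SE; limma, adjusted p = 0.000291) means 50.1% less signal. H3C7 fell from 8.28 ± 0.06 to 7.51 ± 0.17 (SD, n = 3 each), a change of -0.77 ± 0.11 (SE; limma, adjusted p = 0.00411), and H3C11 from 10.23 ± 0.04 to 9.50 ± 0.16 (SD, n = 3 each), a change of -0.73 ± 0.11 (SE; limma, adjusted p = 0.00439). A dim row that H3C11 shares with H3C6 measured -0.24 ± 0.11 (SE; limma over all rows, adjusted p = 0.376). H3C12 measured -0.63 ± 0.12 (SE; limma, adjusted p = 0.0166) and H3C10 -0.42 ± 0.10 (SE; limma, adjusted p = 0.0429), and with an array left out their adjusted p reached 0.0776 and 0.153. The call of H3C10 ended whichever array was left out. H3C1 at -0.36 ± 0.12 (SE; limma, adjusted p = 0.132) and H3C8 at -0.26 ± 0.10 (SE; limma, adjusted p = 0.162) did not pass. H3C3 measured 6.14, 6.14 and 6.17 on the control arrays and 5.99, 6.15 and 6.01 on the CTNNB1 siRNA arrays, with overlapping groups and a change of -0.10 ± 0.09 (SE; limma, adjusted p = 0.610).

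H4 genes, which encode the most conserved core histone, fell in 5 of 13 cases with a median of -0.32. H4C3 measured 9.64, 9.57 and 9.35 on the control arrays and 8.12, 8.57 and 8.67 on the CTNNB1 siRNA arrays, a change of -1.06 ± 0.15 (SE; limma, adjusted p = 0.00366). H4C2 measured 9.14, 8.90 and 9.13 on the control arrays and 8.20, 8.15 and 8.34 on the CTNNB1 siRNA arrays, a change of -0.83 ± 0.11 (SE; limma, adjusted p = 0.00227). Both groups were clear of each other in these genes, with 52.2% and 43.6% less signal. H4C4 measured -0.81 ± 0.11 (SE; limma, adjusted p = 0.00412), H4C5 -0.72 ± 0.13 (SE; limma, adjusted p = 0.0134) and H4C13 -0.57 ± 0.12 (SE; limma, adjusted p = 0.0301). With an array left out, the adjusted p of H4C5 and H4C13 reached 0.0680 and 0.0985. H4C8, H4C7, H4C16, H4C1 and H4C9 had changes between -0.43 and -0.28 and did not pass. The twin rows of H4C14 and H4C15, HIST2 genes, measured 9.18, 9.02 and 9.04 on the control arrays and 9.28, 9.14 and 9.17 on the CTNNB1 siRNA arrays, a change of 0.11 ± 0.10 (SE; limma, adjusted p = 0.572). H4C6 measured 5.07, 5.18 and 5.32 on the control arrays and 5.06, 5.52 and 5.05 on the CTNNB1 siRNA arrays, with overlapping groups and a change of 0.02 ± 0.14 (SE; limma, adjusted p = 0.956).

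Brightness, origin and neighbourhood of the members were compared next, as counts without a test. Of 44 members with a control mean above the array median 25 fell, and of 13 below it 2 fell, with medians of -0.52 and -0.32. In HIST1 26 of 49 members fell with a median of -0.45, in HIST2 1 of 5 with a median of 0.11, and in HIST3 and HIST4 none of 3. The HIST2 median is the value of the identical rows of H4C14 and H4C15, 1 measurement counted for both genes. The rest of HIST2 measured -0.62 (H2AC21), -0.48 (H2AC20) and 0.58 (H2BC21), so this median gives no common direction. The 3 testis members, H1-6, H2AC1 and H2BC1, did not pass and were all dim. Of the 6 members known for polyadenylated transcripts H2AC6 (-0.65 ± 0.10), H2BC4 and H2BC5 fell, and H1-2, H2BC12 and H2BC21 did not pass. The median of these 6 was -0.50, beside -0.44 for the other 51.

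Along the chromosome, HIST1 members fall into 4 runs of neighbours separated by gaps of over 250000 bases in RefSeq's GRCh38 annotation, used here for order only. None of the 2 members in the leftmost run fell, 16 of 29 in the next, 1 of 5 in the one after and 9 of 13 in the last. Genes that fell stood beside genes that did not pass: H3C2 and H2AC4, which both fell, are followed by H2BC3 at -0.30 and H3C3 at -0.10. The stretch from H2AC15 to H2AC17 held 7 falls in a row, from -0.75 to -0.45, and ended with H2BC17 at -0.03.

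**Figure D3:**
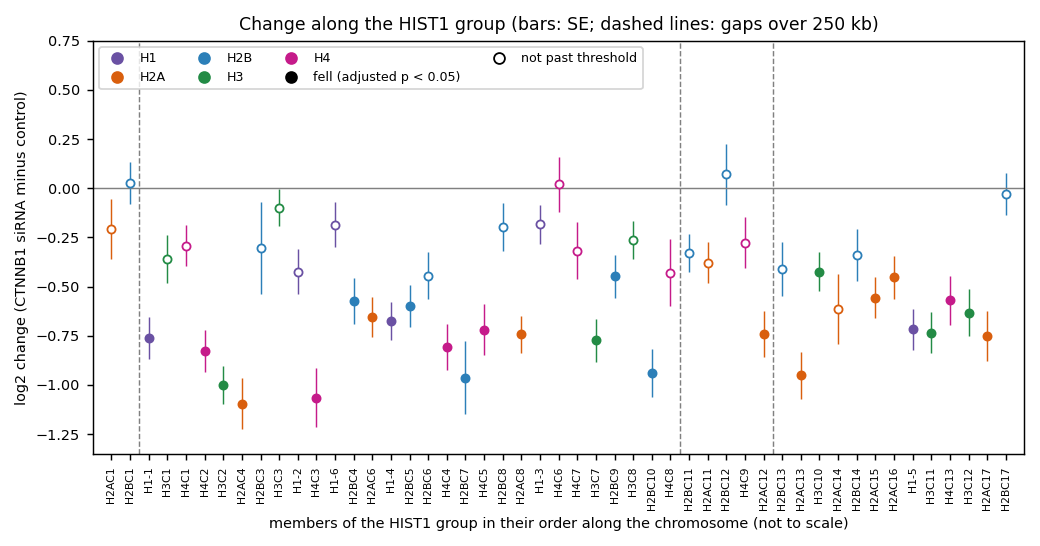
Log2 change (y axis, CTNNB1 siRNA minus control siRNA, bars are standard errors) of the 49 HIST1 members in their order along the chromosome (x axis, not to scale), coloured by histone type; dashed lines mark gaps of over 250000 bases and filled points passed an adjusted p of 0.05. Filled points occur in all runs but the leftmost, and neighbours such as H2AC4 (-1.10) and H2BC3 (-0.30) differ in size.

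Many H2A and H2B genes lie back to back and share the stretch between their starts. Among members with a promoter in the table, 9 such pairs started on opposite strands with 215 to 248 bases between the starts. In all 9 pairs the H2A gene had the more negative change, although the difference within a pair was not tested. Both genes fell in 1 pair, H2AC6 (-0.65) with H2BC4 (-0.57). In 3 pairs only the H2A gene passed: H2AC8 measured -0.74 beside H2BC8 at -0.20, H2AC13 -0.95 beside H2BC13 at -0.41, and H2AC17 -0.75 beside H2BC17 at -0.03. The widest gap was between H2AC20 at -0.48 and H2BC21 at 0.58, neither of which passed. In H2AC11 and H2BC11 the changes were close, at -0.38 and -0.33.

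**Figure D4:**
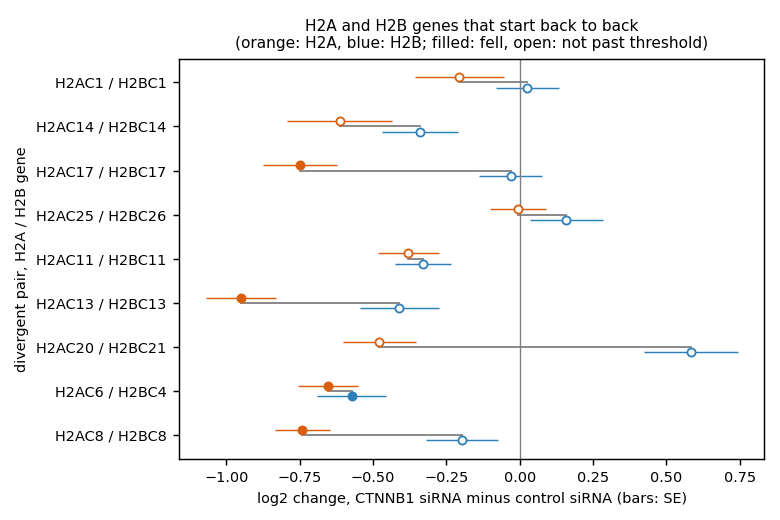
Log2 change (x axis, CTNNB1 siRNA minus control siRNA, bars are standard errors) of the H2A gene (orange) and the H2B gene (blue) of each of 9 back-to-back pairs (y axis); filled points fell. In every pair the orange point lies left of the blue one, by the most in H2AC20 (-0.48) and H2BC21 (0.58).

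Rows that the annotation assigns to several genes were left out of the members but read the same families. There were 20 rows with several symbols of which at least 1 met the naming rule, 17 of them with distinct values, and 12 further histone genes were read on such rows only. In a fit over all 33297 rows, 2 of the 17 fell and none rose, where 0.219% of all rows fell. In the fit over genes, used for the members, 2.65% fell, so the counts of the 2 fits cannot be set side by side. The row with the most negative change, of H3C4 and H2AC7, did not pass (-0.68 ± 0.14, SE; limma over all rows, adjusted p = 0.0998). Changes of the 17 rows ran from -0.68 to 0.05 with a median of -0.28, and 16 were negative. In 13 all CTNNB1 siRNA arrays lay below all control arrays. That share was not taken over all rows, and over the 18417 genes it was 15.2%. The falls were on a row of 4 H2B genes (-0.67 ± 0.10, SE; limma, adjusted p = 0.0380) and on a row of 1 H2A and 1 H3 gene (-0.66 ± 0.10, adjusted p = 0.0480). The symbols of the former include H2BC5, H2BC12 and H2BC17, whose own rows measured -0.60, 0.07 and -0.03. Rows shared by H3 genes alone had smaller changes, between -0.28 and -0.19. The rows are not independent of the members, since 8 members have a sequence accession that also appears on another row.

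The replacement variants, histone genes that are expressed outside S phase and are not members of the clusters, showed no common direction. Of 9 measured, 5 changes were negative and 4 positive around a median of -0.01, and 1 gene rose. It was the linker variant H1-10, at 8.82 ± 0.13 on control and 9.50 ± 0.17 on CTNNB1 siRNA arrays (SD, n = 3 each), a difference of 0.68 ± 0.12 (limma, adjusted p = 0.0116). Leaving out CTNNB1 siRNA replicate 1 ended that call (adjusted p = 0.0575). H3-3B, a source of histone H3.3, measured 0.25 ± 0.11 (adjusted p = 0.224) and H2AZ1, of the variant H2A.Z, -0.24 ± 0.12 (adjusted p = 0.290).

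None of 16 measured genes for histone transcription and mRNA processing passed the threshold, and their median change was -0.13. At an unadjusted p under 0.05 in limma 5 were lower and none higher, where 2210 and 1536 of all 18417 genes were. CPSF2, of the cleavage machinery, measured -0.34 ± 0.09 (SE; limma, adjusted p = 0.0706), the cap-binding gene NCBP1 -0.37 ± 0.11 (adjusted p = 0.0889) and LSM1, which acts in histone mRNA decay, -0.27 ± 0.09 (adjusted p = 0.138). With a trended and robust variance CPSF2 and NCBP1 passed (adjusted p = 0.0146 and 0.0281). NPAT measured 0.04 ± 0.10 (adjusted p = 0.849) and SLBP 0.08 ± 0.10 (adjusted p = 0.703). Of 14 histone chaperones, which hand histones to DNA, 2 fell: NAP1L1 by 0.53 ± 0.12 and SUPT16H, of the FACT complex, by 0.41 ± 0.10 log2 units (adjusted p = 0.0338 and 0.0442). SSRP1, the FACT partner of SUPT16H, measured -0.34 ± 0.09 (adjusted p = 0.0685). It measured -0.18 as the mean of all its rows (adjusted p = 0.343) and passed with the trended and robust variance (adjusted p = 0.0123). The chaperone median was -0.15, with 12 negative and 2 positive changes. In 8 of the 14 chaperones all CTNNB1 siRNA arrays lay below all control arrays and in 1 all lay above, where 15.2% and 10.8% of all genes did. Without control replicate 1 neither NAP1L1 nor SUPT16H passed (adjusted p = 0.147 and 0.167), and SUPT16H did not pass under cyclic loess either (adjusted p = 0.0799).

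Of 29 DNA replication genes 1 rose and none fell, with a median of -0.16 and 21 negative changes. At an unadjusted p under 0.05 in limma 8 were lower and 1 was higher, where 2210 and 1536 of all 18417 genes were. In 11 all CTNNB1 siRNA arrays lay below all control arrays and in 3 all lay above, where 15.2% and 10.8% of all genes did. The gene that rose was CCNE2, which encodes a cyclin E, with 0.66 ± 0.12 (limma, adjusted p = 0.0125). TYMS, for thymidylate synthesis, measured -0.41 ± 0.10 (adjusted p = 0.0538) and RRM1, a subunit of ribonucleotide reductase, -0.39 ± 0.12 (adjusted p = 0.0872). Both passed with the trended and robust variance (adjusted p = 0.0114 and 0.0241) and without the dimmest 25% of genes (adjusted p = 0.0263 and 0.0472), and neither did with an array left out. Of 12 mitosis genes CENPF, a kinetochore protein, fell by 0.63 ± 0.14 (adjusted p = 0.0306), TOP2A measured -0.36 ± 0.11 and KIF11 -0.37 ± 0.11, and the median was -0.06. Of 6 CDK inhibitors CDKN1A, which encodes p21, rose by 0.59 ± 0.10 (adjusted p = 0.0102), CDKN2B measured 0.35 ± 0.10 (adjusted p = 0.0689) and CDKN1C 0.17 ± 0.11. CCNE2 and CENPF did not pass without control replicate 1 (adjusted p = 0.0680 and 0.135), nor CCNE2, CENPF and CDKN1A without CTNNB1 siRNA replicate 1 (adjusted p = 0.0601, 0.125 and 0.0532).

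All 9 measured genes of a short interferon-stimulated list rose in the same arrays, by a median of 2.80 log2 units. IFIT1 rose by 4.27 ± 0.11, RSAD2 by 4.28 ± 0.13 and OAS2 by 3.98 ± 0.14 log2 units (SE; limma, adjusted p = 5.44e-08, 8.49e-08 and 1.66e-07). The list's mean level was 6.60 to 6.80 on control and 9.60 to 9.80 on CTNNB1 siRNA arrays, and the part of this response in the histone changes was not tested.

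**Figure D5:**
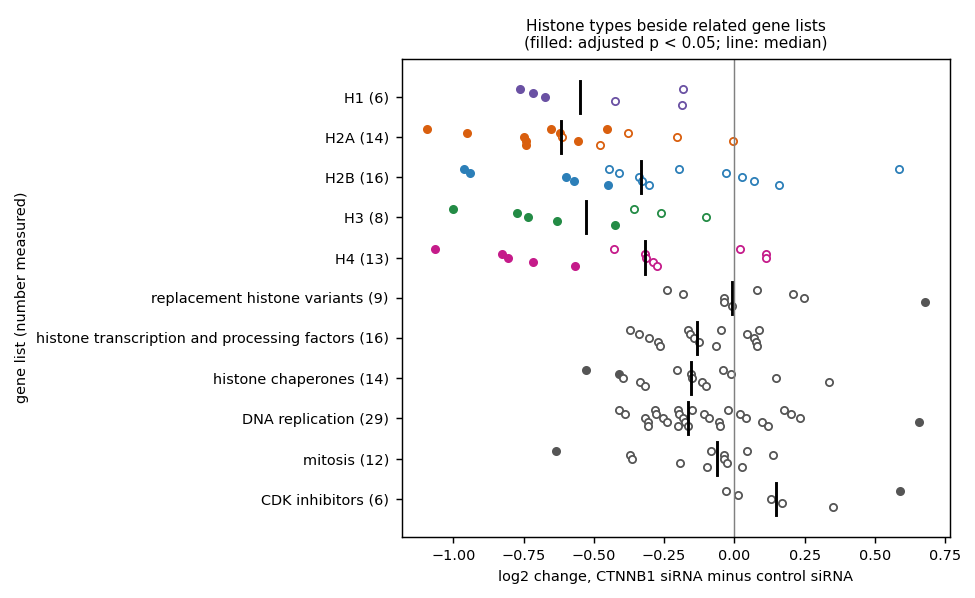
Log2 change (x axis, CTNNB1 siRNA minus control siRNA) of each gene of the 5 histone types (coloured) and of 6 related lists (grey), with the number measured in parentheses; filled points passed an adjusted p of 0.05, black lines are medians and vertical offsets only separate points. Histone medians lie between -0.62 and -0.32, and those of the related lists between -0.16 and 0.15.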

How the data were processed

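Total RNA from 6 samples of YCC3 cells was read on Affymetrix Human Gene ST arrays. The authors deposited RMA signals on a log2 scale, and the submitters' processing notes name RMA and Affymetrix Expression Console 1.1. Values from 0.789 to 14.5, with array medians of 5.88 to 5.95, fit that scale. The genome build of the array annotation is not given in the sources used here. RMA scales arrays alike, so it hides a shift of most genes. No background calls were available, and 3 arrays per group limit the precision.

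The annotation gave 1 symbol for 19460 of 33297 rows, several for 1754 and none for 12083. The brightest row of each gene over all arrays was kept, leaving 18417 genes. The test was two-sided, by lmFit and eBayes of limma 3.58.1 (R 4.3.3), and p-values were adjusted over the 18417 genes by Benjamini-Hochberg, with 0.05 as the threshold. The script was tested on simulated data. "Fell", "rose" and "passed" refer to that threshold, and errors of changes are standard errors. The members and the gene lists were chosen with earlier results of these data known. Described singly were, in each type, the 3 members with the smallest p and the one with the largest, members with a positive change of 0.3 or more, and the 3 genes of each list other than the cell type markers with the smallest p. NPAT, SLBP, TFF1 and CLDN4 were added after their values were seen. Other members are named to account for all of them. Some genes of the lists are not reported here.

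Arrays of the same group differed from each other with SDs of 0.203 to 0.262 log2 units. Promoter sequences are RefSeq's, GRCh38.p14. Back-to-back pairs were genes on opposite strands with at most 500 bases between their starts. Other settings were a replicate block, repeated quantile normalization, cyclic loess, removal of the dimmest 25% of genes, the mean of all rows or every row of a gene, a trended and robust variance, no moderation, a threshold of 0.10 and leaving out each array.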

Additional observations from a re-analysis of the deposited data

How the results depend on the processing

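The count of 27 falls stayed within 1.5 times in 14 of 15 other settings, and was 2 in the per-gene test without moderation, in which CTNNB1 also missed the threshold (log2 change -0.77, adjusted p = 0.0660). It was 18 to 25 with 1 array left out, and the members' median change was then -0.50 to -0.42. No member rose with 1 array left out, and 1 member, H2BC21, rose in 6 settings: the replicate block, repeated quantile normalization, cyclic loess, removal of the dimmest 25%, the trended and robust variance, and a threshold of 0.10. With the replicate block 30 members fell and 1 rose, all 27 falls kept. Between same-numbered arrays, deviations over genes correlated at -0.02, 0.33 and 0.22 for numbers 1, 2 and 3. Between arrays of different number the correlations ran from -0.29 to 0.08. Numbers 2 and 3 matched their own number best and number 1 did not, so whether the numbers pair the samples is unknown. In all, 52 of 57 members had the same sign in every setting run. The 5 others, H2AC25, H2BC12, H2BC17, H2BC1 and H4C6, had changes of at most 0.07 in size. Over all genes, 488 falls and 382 rises became 95 to 513 and 183 to 364 with 1 array left out. They became 707 and 470 with the replicate block, 36 and 75 without moderation, and 927 and 556 without the dimmest 25%. With the trended and robust variance they were 1036 and 586, and at a threshold of 0.10 they were 1008 and 660. The fit over all 33297 rows, used for the rows with several symbols, is not among the 15 settings. In it only 73 rows fell and 179 rose, and the falls of members were not counted there. Signal over background was not available, so which dim rows lie above it is unknown.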
